A study of Mus musculus with 6 samples.

Results

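The integrin and syndecan mRNAs of unsorted mouse primary myoblast cultures were compared between libraries labelled WT and eIF5A-KO. All 30 genes of these families that were chosen by name, 18 integrin alpha subunits, 8 integrin beta subunits and 4 syndecans, were found among the 54532 genes of the count table, and 26 of them had enough reads to be tested. No integrin or syndecan mRNA changed by a test adjusted over the 14679 genes that passed a filter on low counts. Without that filter Itgb6 was the only member called, in a fit that called 65 genes higher and 184 lower of 26956. No other processing tried here called it. The most abundant of them, Itgb1, Sdc4, Itga5 and Sdc1, took the first 4 places in both genotypes, and the scarce beta subunit Itgb6 had the largest fold difference, lower in the libraries labelled eIF5A-KO.

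Integrins are cell surface receptors made of 1 alpha and 1 beta subunit, and the pair decides which matrix protein is bound. In muscle the pair of the products of Itga7 and Itgb1 holds the fibre to laminin in the basement membrane, and satellite cells, the stem cells of muscle, lie under that same membrane. Syndecans are membrane proteins that carry heparan sulfate chains, through which they bind growth factors such as FGF and HGF and matrix proteins. Sdc3 and Sdc4 are known as surface markers of satellite cells.

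Primary myoblasts are muscle progenitor cells grown in culture. They were isolated from the hind limbs of 3-week-old mice with dispase and collagenase, strained without sorting, kept with FGF and collected at day 2, and there were 3 libraries for each genotype. The knockout mice were Pax7 CreERT2/+;eIF5A f/f animals given tamoxifen, so that the Cre recombinase acts only in cells that express Pax7, and other cells of the digest keep eIF5A. The controls were WT littermates, described as Pax7 CreERT2/+ in the study's text and as Pax7 +/+;eIF5A f/f in one of its legends. Nothing in the sources used here says whether each library is a separate animal, and the p-values then measure the spread between these libraries, which may be technical.

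Between 16281216 and 17734551 reads were counted per library. Eif5a itself had 1603, 986 and 1238 CPM in WT and 1364, 1459 and 1059 CPM in eIF5A-KO, with overlap (log2 fold change 0.02, 95% confidence interval -0.51 to 0.55), so every direction below refers to the libraries by their labels. CPM are the reads of a gene relative to the library's total, corrected by TMM factors. The whole-gene counts do not separate the deleted exons from the others. WT replicate 1 stood apart, with 5.75% of its reads on mitochondrial transcripts against 2.11% to 3.50% in the other 5. Of 14 satellite cell and myoblast markers, 0 were without reads in all libraries, and their summed level was 689.7 to 1486 CPM in WT and 634 to 1130.0 CPM in eIF5A-KO. For 12 endothelial cell markers the sums were 1841 to 3688 CPM in WT and 3305 to 4775 CPM in eIF5A-KO. For 12 fibroblast markers they were 2833 to 3789 CPM in WT and 2738 to 3526 CPM in eIF5A-KO. Both lists were above the myoblast list in every library, though such sums depend on the genes chosen. The levels below are those of whole libraries, and which cells they come from was not tested. In these bulk libraries, fewer cells of a type and less RNA per cell cannot be told apart.

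Levels between genes were compared per length, in the FPKM of the authors' table (fragments scaled to gene length and to library size). Itgb1, the beta subunit that most alpha subunits pair with, was first, with means of 214 FPKM in WT and 220.3 FPKM in eIF5A-KO. Sdc4 followed with 177 and 193 FPKM, then Itga5, the alpha subunit of the fibronectin receptor, with 82.9 and 108 FPKM, and Sdc1 with 46.0 and 50.0 FPKM. Itgb1 and Sdc4 did not differ in level beyond their spread, whose SD was 23.7 and 29.7 FPKM in WT. In all, 12 members had a WT mean above 10 FPKM, and 11 stayed below 1 FPKM in both genotypes. The scarce ones were Itga2b, Itga4, Itga8, Itga10, Itga11, Itgb6 and the 5 leukocyte alpha subunits Itgad, Itgae, Itgal, Itgam and Itgax.

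**Figure D1:**
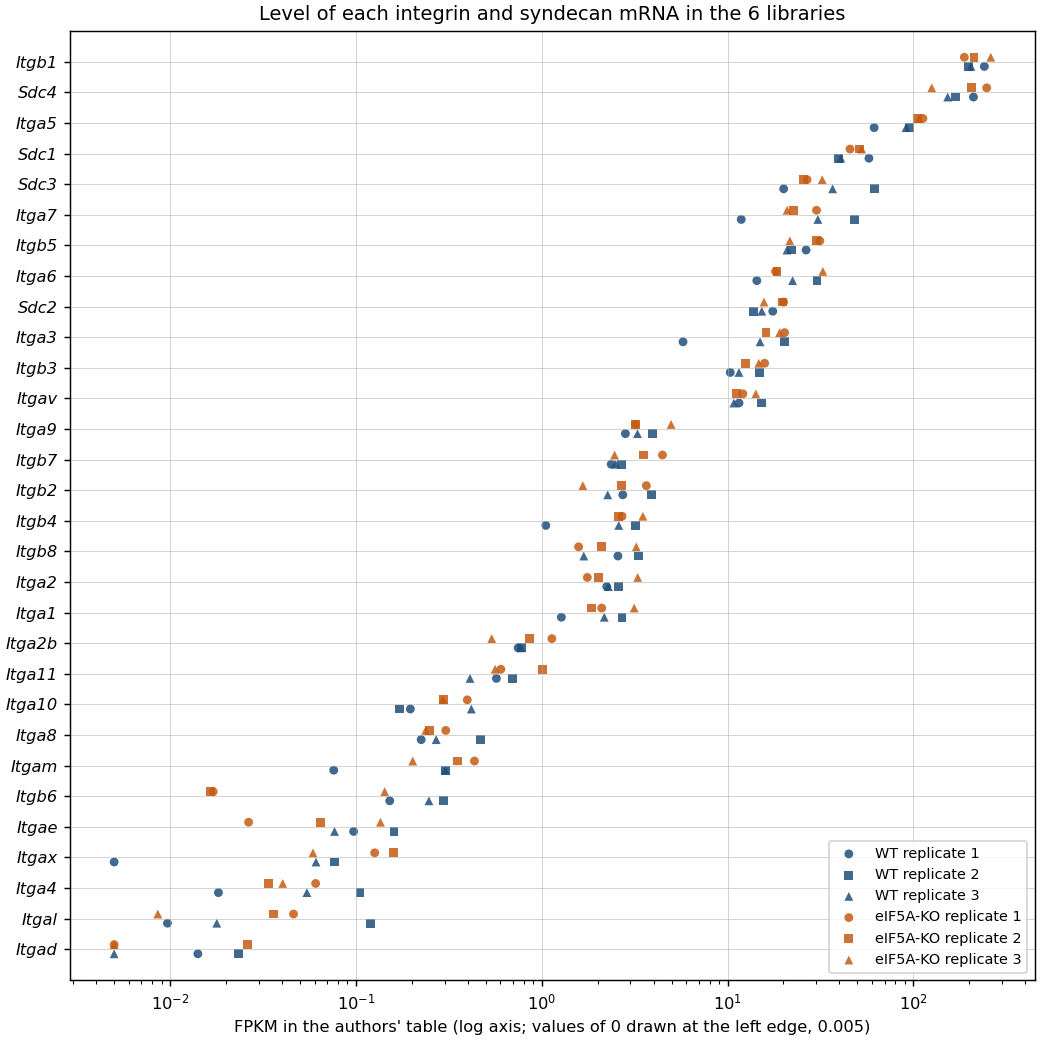
FPKM of each of the 30 members in the 6 libraries on a log axis (blue, WT; orange, eIF5A-KO; marker shape, replicate; values of 0 at 0.005). The blue and orange points of most genes lie side by side, while Itgb6 has 2 eIF5A-KO points far to the left of the others.

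Among beta subunits, Itgb1 took 82.3 ± 2.30% (SD, n = 3) of the summed FPKM in WT and 80.1 ± 4.36% (SD, n = 3) in eIF5A-KO. Itgb5 followed with 8.88% and 10.4%, and Itgb3 with 4.77% and 5.28%. Among alpha subunits, Itga5 took 49.4 ± 5.69% (SD, n = 3) in WT and 54.8 ± 2.95% (SD, n = 3) in eIF5A-KO. Next in WT were the laminin-binding subunits Itga7 with 16.4% and Itga6 with 12.9%, then Itgav with 7.67% and the laminin-binding Itga3 with 7.52%, and in eIF5A-KO these 4 had 12.4%, 11.6%, 6.29% and 9.31%. Sdc4 made up 63.5 ± 4.83% (SD, n = 3) of syndecan FPKM in WT and 65.4 ± 8.95% (SD, n = 3) in eIF5A-KO. These shares are descriptions, and each moved between genotypes by less than the sum of both SDs. The summed alpha level was 113 FPKM in WT replicate 1, far below the 180.2 to 222 FPKM of the other 5 libraries, while the summed beta level lay between 246 and 308 FPKM in all 6.

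**Figure D2:**
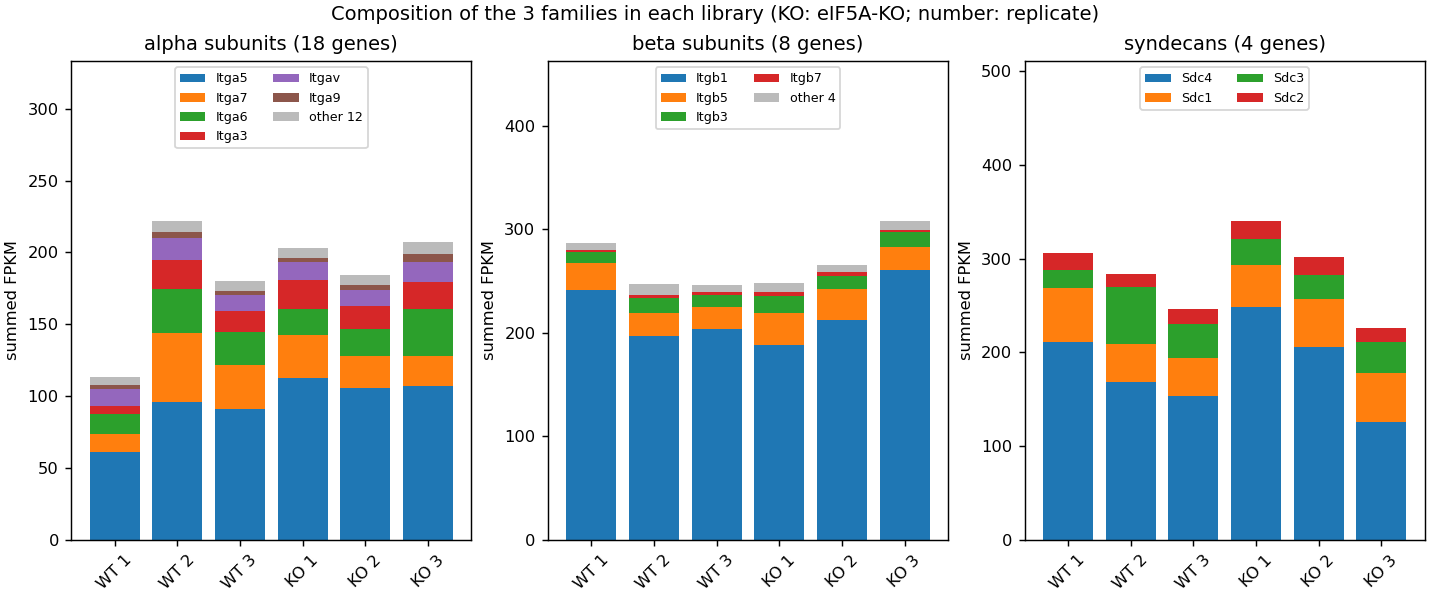
Summed FPKM of alpha subunits, beta subunits and syndecans in each library, stacked by gene. Itga5, Itgb1 and Sdc4 make the largest block of their family in all 6 libraries, and the alpha bar of WT replicate 1 is the shortest at 113 FPKM.

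Whether these receptors differ between libraries labelled WT and eIF5A-KO was asked with edgeR's quasi-likelihood test on the counts, with Benjamini-Hochberg adjustment over 14679 genes. The number of members with an adjusted p under 0.05 was 0 of 26, where 0.0204% of all tested genes passed. DESeq2 and limma on log2 FPKM gave 0 as well. At an unadjusted p under 0.05, 0 members were higher, against 2.74% of all genes, and 1 was lower, Itgb6, against 4.02%. By the criterion that the study's methods give, a fold over 2 with an unadjusted p under 0.05, 0 members were higher (0.531% of all genes) and 1 was lower, again Itgb6 (1.32% of all genes). The 3 libraries of a genotype lay wholly above those of the other for 1 member in each direction, Itga5 higher in eIF5A-KO (5.68% of all genes) and Itgb6 lower (6.83%). A count of 1 in 26 is 3.85%, which lies between the smallest and the largest of these backgrounds for lower or separated genes, 1.32% and 6.83%, and single members are read no further.

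The median log2 fold change of the 26 tested members was 0.12, with 17 higher and 9 lower. That of all tested genes was -0.01, with 7097 higher and 7582 lower. The members that passed the filter on low counts could do so through one genotype alone. How far a difference is bounded varied by gene. The 95% confidence interval stayed within 1.5-fold in either direction for 4 members, Itga2, Itgav, Itgb1 and Sdc1. For 11 more it stayed within 2-fold, and for the other 11 it was wider, so that a 2-fold difference in at least 1 direction lay inside it.

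**Figure D3:**
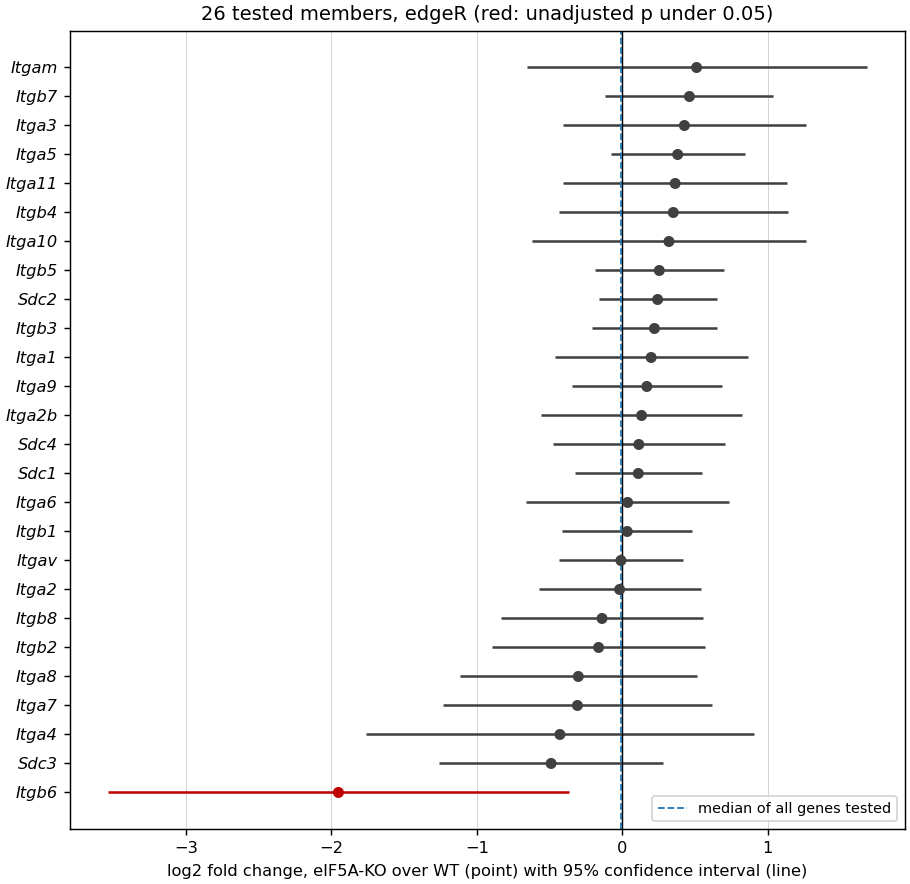
Log2 fold change (points) of the 26 tested members, eIF5A-KO over WT, with 95% confidence intervals (lines) from edgeR; the dashed line is the median of all tested genes, -0.01. Only the interval of Itgb6, -3.53 to -0.37, leaves out 0.

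Itgb6 encodes a beta subunit that pairs with the product of Itgav, is known mainly from epithelia, and activates latent TGF-beta. The gene (ENSMUSG00000026971) lies in mm10 on chromosome 2, 60598292 to 60722643, minus strand, with up to 18 exons, and no other annotated gene overlaps it. The counts were 17, 40 and 30 in WT replicates 1 to 3 and 2, 2 and 18 in eIF5A-KO replicates 1 to 3. Replicates 1 and 2 labelled eIF5A-KO were thus nearly without reads, while replicate 3 had about as many as WT replicate 1. Exact Poisson intervals at 95%, which cover counting error only, were 0.242 to 7.22 for the counts of 2, 10.7 to 28.4 for the count of 18 and 9.90 to 27.2 for the count of 17. In CPM the levels were 1.10, 2.12 and 1.77 in WT and 0.122, 0.118 and 1.02 in eIF5A-KO, so that the genotypes did not overlap, by the narrow gap between 1.02 and 1.10 CPM. EdgeR gave a log2 fold change of -1.95 (standard error 0.70, interval -3.53 to -0.37 at 95%, unadjusted p = 0.0209, adjusted p = 0.592 in edgeR). Without replicate 3 labelled eIF5A-KO it was -3.71 with an unadjusted p of 4e-04, and without replicate 2 it was -1.51 with an unadjusted p of 0.0697 in edgeR. Without replicate 1 labelled eIF5A-KO it was -1.52 with an unadjusted p of 0.0731, and without WT replicate 2 it was -1.73 with an unadjusted p of 0.0507, both in edgeR. Limma gave -1.13 on log2(FPKM + 0.1) and -0.22 on log2(FPKM + 1), scales that understate differences of a gene at such low FPKM. Itgb6 passed the filter on low counts through WT, the group where it was higher, and was not tested where at least 10 counts were asked of every library. The fit with no filter on low counts gave Itgb6 an adjusted p of 0.0292 in edgeR, and it called 65 genes higher and 184 lower of 26956. The other 12 alternatives that tested Itgb6 gave 0.291 to 1.

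Of 10 epithelial markers, 3 were tested, 7 had fewer than 5 reads in every library and Krt14 had 0 reads in all. Their summed level was 3.98 to 7.63 CPM in WT and 6.36 to 7.22 CPM in eIF5A-KO, lowest in WT replicate 2, where Itgb6 was highest. Their part in the Itgb6 result was not tested.

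The bases before the start sites of Itgb6 are shown because it is the member with the largest fold difference, beside those of Itgb5, the abundant beta subunit that shares its partner. The sequences are RefSeq's on GRCm38.p6, 250 bases before each start site, 5′ to 3′ on the strand of the gene. Capitals mark CANNTG, the E-box letters that myogenic bHLH factors such as MyoD are known to bind; the motif reads the same way on both strands, and CAGCTG is one form of it. The first Itgb6 window is chr2:60722604-60722853 and the second, at an inner start site, is chr2:60673694-60673943, both on the minus strand. The coordinates of Itgb6 given above reach 60722643, so the last bases of the first window, with its last match, lie inside the annotated gene. The second window lies wholly inside it. The Itgb5 window is chr16:33829415-33829664 on the plus strand.
Itgb6, outer start: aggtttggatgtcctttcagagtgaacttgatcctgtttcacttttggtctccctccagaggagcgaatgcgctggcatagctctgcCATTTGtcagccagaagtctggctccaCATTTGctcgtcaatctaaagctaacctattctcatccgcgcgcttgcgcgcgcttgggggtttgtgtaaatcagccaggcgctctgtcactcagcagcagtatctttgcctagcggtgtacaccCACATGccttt
Itgb6, inner start: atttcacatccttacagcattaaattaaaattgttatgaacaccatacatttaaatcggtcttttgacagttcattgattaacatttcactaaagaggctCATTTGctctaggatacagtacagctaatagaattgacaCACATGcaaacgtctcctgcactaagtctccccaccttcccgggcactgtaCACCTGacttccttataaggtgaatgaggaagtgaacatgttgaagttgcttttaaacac
Itgb5: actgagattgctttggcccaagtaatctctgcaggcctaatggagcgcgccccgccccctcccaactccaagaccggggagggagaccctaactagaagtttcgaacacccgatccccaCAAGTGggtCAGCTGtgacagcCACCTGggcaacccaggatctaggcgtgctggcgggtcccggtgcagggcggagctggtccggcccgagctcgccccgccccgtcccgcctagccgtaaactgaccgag
Each of the 3 windows held 3 matches. They began 163, 136 and 11 bases before the outer Itgb6 start, 150, 111 and 60 bases before the inner one, and 131, 122 and 109 bases before that of Itgb5, where the middle one is CAGCTG. RefSeq windows were found for 21 of the 30 members, 23 windows in all. Of these 16 held CANNTG, against 66.2% of 32851 windows of all genes, 4 held at least 3 matches, against 12.2%, and 5 held CAGCTG, against 13.0%. The 4 with at least 3 matches were the 3 windows printed here and that of Itga9, so that Itgb6 enters by both its windows. A match is a description of letters and not a binding site, and no binding was measured here.

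The other subunits of receptors built on Itgav overlapped between genotypes. Itgav, whose product binds RGD sequences in vitronectin and fibronectin, had 126, 165 and 117 CPM in WT and 131, 121 and 153 CPM in eIF5A-KO. Its log2 fold change of -0.01 had one of the narrowest intervals, -0.44 to 0.42. Itgb3, the vitronectin receptor subunit, had 62.0, 88.5 and 68.5 CPM in WT and 94.3, 73.8 and 87.2 CPM in eIF5A-KO, with WT replicate 2 above 2 of the eIF5A-KO libraries (log2 fold change 0.22, interval -0.21 to 0.65). Itgb5, also a vitronectin receptor subunit, had 95.5, 79.1 and 74.8 CPM and 113, 108 and 77.2 CPM, where replicates 1 and 2 labelled eIF5A-KO were above every WT library and replicate 3 was not. Its log2 fold change was 0.25 (interval -0.19 to 0.70). Itgb8, which like Itgb6 serves the activation of latent TGF-beta, had 28.9, 37.0 and 18.8 CPM and 17.6, 23.4 and 35.8 CPM. Its highest library was WT replicate 2 and its lowest was eIF5A-KO replicate 1, and the log2 fold change was -0.14 (interval -0.84 to 0.56), which became 0.11 without WT replicate 2 and 0.080 without eIF5A-KO replicate 1.

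Itgb1 (chromosome 8, 128685654 to 128733200, plus strand, up to 16 exons) had 999.5, 813 and 839 CPM in WT and 774, 870.4 and 1069 CPM in eIF5A-KO. Both the highest and the lowest library were labelled eIF5A-KO, and the log2 fold change was 0.03 (interval -0.41 to 0.48, adjusted p = 0.988 in edgeR). The sign of this small value turned without WT replicate 2, WT replicate 3 or eIF5A-KO replicate 3. With 12658 to 18860 reads per library, the spread between replicates and not counting set the width of the interval.

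Among the RGD-binding alpha subunits, Itga5 (chromosome 15, 103344286 to 103366763, minus strand) had the clearest separation of genotypes. Its level was 308, 478 and 454 CPM in WT and 560.1, 525 and 529 CPM in eIF5A-KO, and all 3 eIF5A-KO libraries were above all WT libraries. On the log2 scale the difference was 0.38 (standard error 0.20, interval -0.08 to 0.84, unadjusted p = 0.0942, adjusted p = 0.815 in edgeR). It was 0.22 without WT replicate 1, the lowest library, and 0.50 without WT replicate 2, and the adjusted p ranged from 0.555 to 1 over 14 alternatives. Itga8, a receptor subunit for nephronectin known from smooth muscle and kidney, had only 26 to 66 reads per library, 1.68, 3.50 and 2.01 CPM in WT and 2.26, 1.84 and 1.76 CPM in eIF5A-KO. Itga2b, the platelet fibrinogen receptor subunit, had 4.14, 4.30 and 4.25 CPM in WT, a spread of 1.04-fold, and 6.24, 4.74 and 2.95 CPM in eIF5A-KO, a spread of 2.12-fold around the WT values. Of 9 platelet markers, 3 were tested, and Gp1bb and Gp6 had 0 reads in all libraries. Their summed level was 9.63, 19.4 and 11.8 CPM in WT and 17.7, 16.3 and 7.60 CPM in eIF5A-KO, lowest in replicate 3 labelled eIF5A-KO as Itga2b was, and their part in it was not tested.

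The laminin receptors varied widely within WT. Itga7 (chromosome 10, 128933818 to 128958282, plus strand, up to 25 exons), the muscle laminin receptor subunit, had 97.4, 395 and 249.8 CPM in WT and 246, 183 and 169.9 CPM in eIF5A-KO. WT replicates 1 and 2 were thus 4.05-fold apart and enclosed all eIF5A-KO libraries, which lay within 1.45-fold of each other. The log2 fold change was -0.31 (interval -1.23 to 0.62, adjusted p = 0.948 in edgeR), -0.68 without WT replicate 1 and 0.20 without WT replicate 2. Itga3, known from cells that lie on a basement membrane, had 33.4, 117 and 86.1 CPM in WT and 117, 92.5 and 109 CPM in eIF5A-KO. WT replicate 1 was 3.51-fold below WT replicate 2, and the log2 fold change of 0.43 became 0.07 without WT replicate 1 and 0.83 without WT replicate 2. Itga6, which pairs with Itgb1 or Itgb4, had 132, 276 and 204 CPM and 165, 167 and 295 CPM, highest in eIF5A-KO replicate 3 and lowest in WT replicate 1. Its log2 fold change was 0.04 (interval -0.66 to 0.74) and was negative without WT replicate 1 or eIF5A-KO replicate 3. Itgb4, the hemidesmosome subunit of epithelia and Schwann cells, had 7.50, 22.8 and 18.4 CPM and 19.1, 18.3 and 24.7 CPM, with WT replicate 1 alone far below the rest (log2 fold change 0.35, 0.02 without WT replicate 1 and 0.68 without WT replicate 2).

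In WT, Itga7, Itga3, Itga6 and Itgb4 had the same order, replicate 1 lowest and replicate 2 highest. The satellite cell and myoblast list had this order too, with summed levels of 689.7, 1486 and 1127 CPM, and so did the list of 20 myogenic differentiation genes, with 404, 748 and 449 CPM. In eIF5A-KO the sums were 1130.0, 832 and 634 CPM for the first list and 313, 376 and 426 CPM for the second. Over all tested genes, 2.74% were higher and 4.02% lower at an unadjusted p under 0.05. Of 12 tested satellite cell genes 4 were higher and 8 lower, with 2 of the lower ones at an unadjusted p under 0.05 and a median log2 fold change of -0.21. This median was -0.72 without WT replicate 1 and 0.11 without WT replicate 2. Without WT replicate 1, 7 of 14 tested satellite cell genes were lower at an unadjusted p under 0.05 in edgeR. There, 3 of them were called at an adjusted p under 0.05. In that fit 1530 of 15056 genes passed the unadjusted threshold in either direction. Adjusted calls in the satellite cell list numbered 0 in edgeR with all libraries, 1 under DESeq2 and 3 without a filter. Of 17 tested differentiation genes 2 were higher and 15 lower, 6 of the lower ones at an unadjusted p under 0.05, with a median of -0.52. That median was -0.24 without WT replicate 2 and -0.84 without eIF5A-KO replicate 1. In the main edgeR fit 0 of these genes had an adjusted p under 0.05. The number was 2 under DESeq2 or without WT replicate 1, 1 with the replicate block and 8 without a filter. Over all genes the adjusted calls were 19 higher and 73 lower of 14679 under DESeq2, and 8 and 48 of 15056 without WT replicate 1. They were 7 and 17 of 14679 with the replicate block and 65 and 184 of 26956 without a filter. This order was not particular to the myogenic lists, since the endothelial, mural, Schwann cell, leukocyte, platelet, tendon cell, adhesion-site and heparan sulfate sums had it in WT too. The part of cell makeup or differentiation in the levels of the laminin receptors was not tested. Schwann cell markers, the other setting of Itgb4, had summed levels of 399, 521 and 497 CPM in WT and 613, 550.4 and 569 CPM in eIF5A-KO, with 9 of 10 tested genes higher and 2 of these at an unadjusted p under 0.05. The Schwann cell median of 0.27 was 0.10 without WT replicate 1, where 1 gene was higher and 1 lower at that threshold, and 1 was higher also without WT replicate 3, eIF5A-KO replicate 1 or eIF5A-KO replicate 2.

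The collagen receptors were modest in level. Itga1, which binds basement membrane collagen, had 24.1, 50.8 and 40.7 CPM in WT and 39.5, 34.5 and 58.7 CPM in eIF5A-KO (log2 fold change 0.20, interval -0.47 to 0.86). Itga2, a receptor subunit for fibrillar collagen, had 16.2, 18.7 and 16.4 CPM and 12.7, 14.5 and 23.5 CPM, where the eIF5A-KO libraries spread to both sides of the WT libraries (log2 fold change -0.02, interval -0.58 to 0.54). Both had their highest level in eIF5A-KO replicate 3. Itga11, known from fibroblasts, had 36 to 88 reads per library, 2.97, 3.61 and 2.13 CPM in WT and 3.12, 5.21 and 2.89 CPM in eIF5A-KO. Itga10, known from cartilage, had 16 to 37 reads per library, with 1.03, 0.902 and 2.19 CPM and 2.08, 1.54 and 1.53 CPM. Fibroblast markers had summed levels of 3789, 2833 and 2957 CPM in WT and 2958, 3526 and 2738 CPM in eIF5A-KO, with 5 of 12 genes higher and 7 lower (1 of the higher ones at an unadjusted p under 0.05). Tendon cell markers had 401, 568 and 435 CPM in WT and between 565 and 572 CPM in eIF5A-KO, with 3 of 6 genes in each direction and 1 of the lower ones at an unadjusted p under 0.05. Over all tested genes 2.74% were higher and 4.02% lower at that threshold. The fibroblast median of -0.08 was 0.26 without WT replicate 1. Without eIF5A-KO replicate 3, 3 fibroblast genes were higher at an unadjusted p under 0.05, where 1072 of 15050 genes passed in either direction. The lower tendon cell gene no longer passed without replicate 2 or 3 of either genotype. Their part in the levels of the collagen receptors was not tested.

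Itga9 and Itga4 form a pair of related subunits that bind VCAM-1 and matrix proteins such as osteopontin. Itga9 had 22.0, 30.8 and 25.4 CPM in WT and 24.8, 24.8 and 38.4 CPM in eIF5A-KO (log2 fold change 0.17, interval -0.35 to 0.68). Itga4, which carries leukocytes across vessel walls, was scarce, with 4, 28 and 13 reads in WT and 14, 8 and 10 reads in eIF5A-KO. Some of its exons overlap those of Cerkl, which had at most 6 reads.

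Integrins of leukocytes were few in reads. Itgb2, the beta subunit that pairs with the products of Itgad, Itgal, Itgam and Itgax, had 8.47, 12.0 and 6.97 CPM in WT and 11.3, 8.23 and 5.10 CPM in eIF5A-KO (log2 fold change -0.16, interval -0.89 to 0.57). Itgb7, the lymphocyte beta subunit that pairs with Itga4 and Itgae, had 6.66, 7.53 and 6.97 CPM and 12.5, 9.83 and 6.86 CPM. WT libraries were tightly grouped, eIF5A-KO replicates 1 and 2 were above them and eIF5A-KO replicate 3 was among them, and the log2 fold change was 0.46 (interval -0.12 to 1.04, unadjusted p = 0.105, adjusted p = 0.819 in edgeR). Itgam, the macrophage and neutrophil alpha subunit, had 6, 29 and 26 reads in WT and 36, 30 and 18 reads in eIF5A-KO (log2 fold change 0.51, interval -0.66 to 1.68, 0.12 without WT replicate 1 and 0.77 without WT replicate 2). The 4 members left out by the filter were all leukocyte alpha subunits. Itgae had 7, 14 and 6 reads in WT and 2, 5 and 11 in eIF5A-KO, and Itgax had 0, 7 and 5 and 10, 13 and 5. Itgal had 1, 15 and 2 reads in WT and 5, 4 and 1 in eIF5A-KO, and Itgad 1, 2 and 0 and 0, 2 and 0. Transcripts of Itgad and Itgax share a stretch of 758 bases at 95% identity, so that the split of their few reads is uncertain.

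The list of 20 leukocyte markers had summed levels of 80.4, 220.3 and 92.8 CPM in WT and 207, 163 and 82.0 CPM in eIF5A-KO. Of 18 tested markers 10 were higher and 8 lower in eIF5A-KO, 1 each way at an unadjusted p under 0.05. Their median log2 fold change of 0.12 was -0.32 without eIF5A-KO replicate 1 and 0.68 without WT replicate 2, and 3 had an adjusted p under 0.05 in edgeR without a filter, against 0 with it. Over all genes the unadjusted shares were 2.74% higher and 4.02% lower, and the adjusted calls without a filter were 65 higher and 184 lower of 26956 genes. WT replicate 2 and eIF5A-KO replicates 1 and 2 had the highest sums, and Itgb2 was above 11 CPM in WT replicate 2 and eIF5A-KO replicate 1 but had 8.23 CPM in eIF5A-KO replicate 2, less than the 8.47 CPM of WT replicate 1, where the leukocyte sum was lowest. The part of leukocytes in these levels was not tested.

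Of the syndecans, Sdc4, a partner of integrins in focal adhesions, had 545, 434 and 393 CPM in WT and 638, 526 and 321 CPM in eIF5A-KO. Its highest and its lowest library were both labelled eIF5A-KO, and the log2 fold change was 0.11 (interval -0.48 to 0.70), which became -0.10 without eIF5A-KO replicate 1 and 0.35 without eIF5A-KO replicate 3. Sdc3 (chromosome 4, 130792537 to 130826319, plus strand, up to 5 exons) had 122, 373 and 222 CPM in WT and 162, 154 and 194 CPM in eIF5A-KO. As with Itga7, WT replicates 1 and 2 enclosed the eIF5A-KO libraries. On the log2 scale the difference was -0.49 (standard error 0.34, interval -1.26 to 0.28, adjusted p = 0.881 in edgeR), -0.80 without WT replicate 1 and -0.01 without WT replicate 2. Sdc1, the syndecan best known from epithelia and plasma cells, had 223, 153 and 156 CPM in WT and 175, 197 and 202 CPM in eIF5A-KO (log2 fold change 0.11, interval -0.33 to 0.55), highest in WT replicate 1. Its log2 fold change was 0.32 without WT replicate 1 and 0.015 without WT replicate 2. Sdc2, known from mesenchymal cells, had 62.8, 49.2 and 54.3 CPM and 71.3, 69.8 and 55.7 CPM (log2 fold change 0.24, interval -0.16 to 0.65), with WT replicate 1 among the eIF5A-KO libraries. WT replicate 1 was thus the lowest library of the WT group for Sdc3 and the highest for Sdc1, Sdc2 and Sdc4.

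Some reads may not be unique to a member. In all, 10 of the 30 members share exonic bases with another annotated gene, and 14 share at least 200 bases at 90% identity or more with a transcript of another gene. The genes with such a copy mostly had few reads in any library, at most 43 for Gm38317 beside Itgb5, 26 for Gm32618 beside Sdc2, 23 for Gm29397 beside Itga6 and 13 for Gm49395 beside Itga1. The exception among the copies was Slc25a51, with up to 1809 reads and 216 bases in common with Itgad, whose own counts were at most 2. Of the genes that only overlap, Cox6a2, which shares exonic bases with Itgad, had means of 4.03 CPM in WT and 2.86 CPM in eIF5A-KO. Itgb6, Itga5 and Itga7 had no such copy.

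Single libraries stood out over the family. WT replicate 1 was the lowest of the 6 libraries for 13 of the 26 tested members, 50.0% against 27.9% of all tested genes, and the highest for 1 member, 3.85% against 27.4%. WT replicate 2 was the highest for 9 members, 34.6% against 24.6% of all tested genes, and eIF5A-KO replicate 1 for 8, 30.8% against 19.4%. The ratio of the highest to the lowest WT library was larger than the fold between genotypes for 23 of the 26 members. This sets a ratio of extremes beside a ratio of group averages, and it tends to be larger for any gene without a strong difference. The share over all tested genes was not computed, so the count is no trait of the family. The coefficient of variation had a median of 27.0% in WT and 23.5% in eIF5A-KO over the members, and 21.5% and 15.0% over all tested genes.

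**Figure D4:**
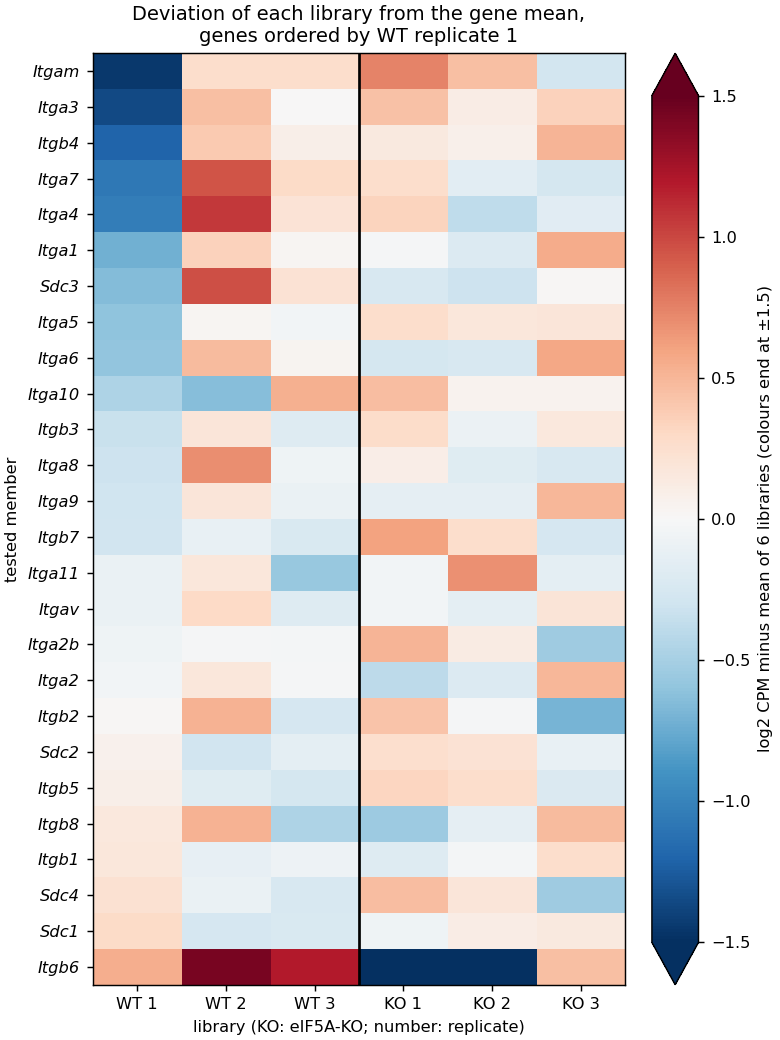
Log2 CPM of each tested member in each library minus the mean of the 6 libraries (red, above the mean; blue, below), ordered by WT replicate 1. The WT replicate 1 column is blue for most alpha subunits and red for Sdc1, Sdc4 and Itgb1, and the 2 darkest cells of eIF5A-KO are Itgb6 in replicates 1 and 2.

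Around the receptors, lists of adhesion-site proteins, integrin ligands and heparan sulfate genes were read in the same fit, and 0 of the 39, 43 and 34 tested genes had an adjusted p under 0.05 in edgeR. Adhesion-site proteins, the adaptors and kinases that tie integrins to actin, had 25 of 39 tested genes higher and 14 lower, a median log2 fold change of 0.13 and 1 gene, higher, at an unadjusted p under 0.05, where 2.74% of all genes were higher, so that the count is no result about the list. The gene was Lims2, an adaptor that binds integrin-linked kinase, with 88.4 ± 14.8 CPM in WT and 125 ± 25.9 CPM in eIF5A-KO (means ± SD, n = 3 each). Rsu1, which binds the same adaptors, had 74.5 ± 4.90 and 94.5 ± 2.79 CPM (n = 3 each), and Cd9, a tetraspanin that joins integrins in the membrane, had 229 ± 19.9 and 303 ± 51.4 CPM (n = 3 each). These 3 genes were named for the smallest p of the list. Over the list the genotypes did not overlap for 4 genes higher and 1 lower in eIF5A-KO, beside 5.68% and 6.83% of all genes. The list's median was -0.003 without WT replicate 1, and its number of genes higher at an unadjusted p under 0.05 ranged from 0 to 4 over the alternatives. The 4 were found without WT replicate 2, where 1318 of 14947 genes passed in either direction.

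Integrin ligands had 35 of 43 tested genes higher in eIF5A-KO and 8 lower, with a median log2 fold change of 0.38. Over all tested genes 7097 were higher and 7582 lower. At an unadjusted p under 0.05, 9 ligands were higher and 1 was lower, beside 2.74% and 4.02% of all genes. The number of ligands higher ranged from 4 without eIF5A-KO replicate 1 to 20 without WT replicate 2. Over all genes, 585 of 15062 and 1318 of 14947 passed in these fits in either direction. The ligand median ranged from 0.28 to 0.60, both ends from leaving out a WT library. Under DESeq2 and without a filter, 2 ligands had an adjusted p under 0.05, and without WT replicate 1 there was 1. Over all genes these fits called 19 higher and 73 lower of 14679, 65 and 184 of 26956, and 8 and 48 of 15056. Vtn, the gene of vitronectin, had 6.63 ± 1.04 CPM in WT and 13.8 ± 1.37 CPM in eIF5A-KO (means ± SD, n = 3 each, log2 fold change 1.06, adjusted p = 0.321 in edgeR). Npnt, the gene of nephronectin, had 5.62, 12.0 and 6.02 CPM in WT and 1.53, 1.72 and 3.17 CPM in eIF5A-KO (log2 fold change -1.88, adjusted p = 0.362 in edgeR). Col6a1, a chain of collagen VI, had 118 ± 20.0 CPM and 192 ± 14.3 CPM (n = 3 each, log2 fold change 0.70, adjusted p = 0.398 in edgeR). These 3 were named for the smallest p of the list. Over its 43 tested genes the genotypes did not overlap for 10 higher and 1 lower in eIF5A-KO, beside 5.68% and 6.83% of all genes. Endothelial and mural cell markers had medians like that of the ligands, 0.39 and 0.37, and their part in the ligand values was not tested. Some lists share genes and are not separate observations. The ligand list shares Col1a1 and Col3a1 with the fibroblast list and Tnc with the tendon cell list. It shares Vcam1 with the satellite cell list and Cdh1 with the epithelial list, and Des is in both the mural and the satellite cell list.

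Heparan sulfate genes, the enzymes, other core proteins and partners of syndecans, had 17 of 34 tested genes in each direction and a median log2 fold change of 0.004. The number at an unadjusted p under 0.05 was 1, higher, near the 2.74% of all genes. It was 3 higher and 3 lower without WT replicate 1, where 1530 of 15056 genes passed in either direction. The 1 gene with all libraries was B4galt7, an enzyme of the linker that joins the chain to the core protein, with 20.0 ± 2.93 CPM in WT and 31.1 ± 7.54 CPM in eIF5A-KO (means ± SD, n = 3 each, adjusted p = 0.563 in edgeR). Hpse, which cleaves the chains, had 9.46 ± 1.45 and 6.82 ± 0.708 CPM (n = 3 each) without overlap, and Hs6st2, a sulfotransferase, had 9.85 ± 3.83 and 6.49 ± 1.02 CPM (n = 3 each) with overlap.

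**Figure D5:**
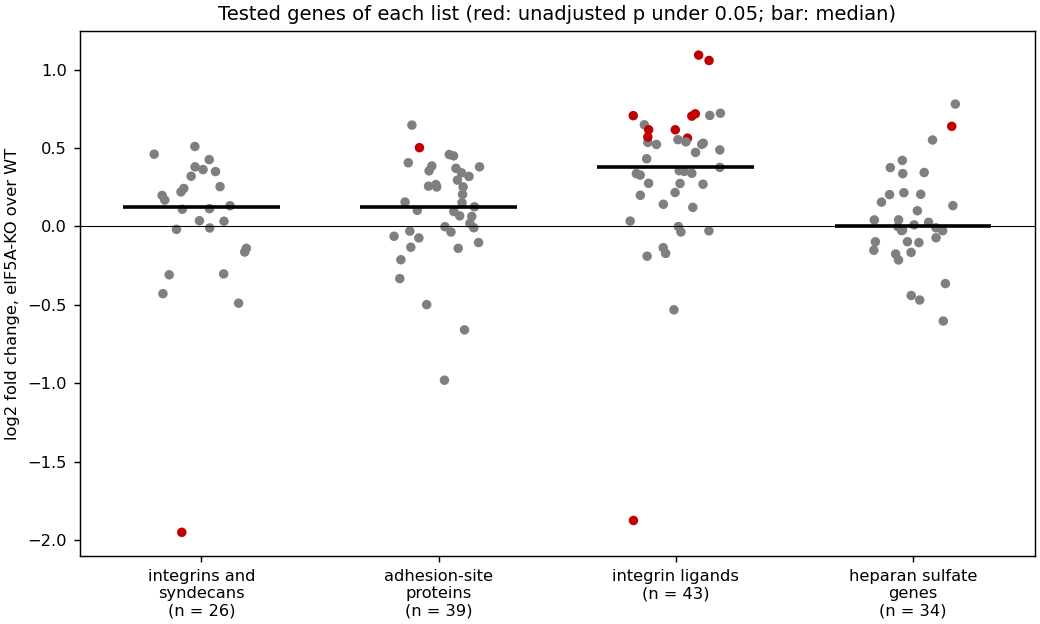
Log2 fold change of every tested integrin and syndecan gene and of the 3 lists around them (points; red, unadjusted p under 0.05; bar, median). The medians are 0.12, 0.13, 0.38 and 0.004 from left to right, and the lowest points are Itgb6 among the members and Npnt among the ligands.

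Markers of vessel cells had mostly positive log2 fold changes, with summed levels that overlapped between genotypes. Over all tested genes 2.74% were higher at an unadjusted and 0.0204% differed at an adjusted p under 0.05. All 12 endothelial genes had a positive log2 fold change (2 at an unadjusted p under 0.05), with summed levels of 1841, 3688 and 3412 CPM in WT and 4198, 3305 and 4775 CPM in eIF5A-KO. Of 11 tested mural cell genes 10 were higher, 4 at an unadjusted p under 0.05 and 1 at an adjusted p under 0.05 in edgeR, with summed levels of 623, 1212 and 925 CPM in WT and 1314, 1114 and 1130.0 CPM in eIF5A-KO. The gene with the adjusted call, named after its values were seen, was Myh11, the myosin of smooth muscle, with means of 10.7 CPM in WT and 30.6 CPM in eIF5A-KO. The adjusted call was absent in 10 of the 14 alternatives, among them library size alone, limma and each fit without 1 library other than WT replicate 1. The mural median of 0.37 was 0.24 without eIF5A-KO replicate 3 and 0.58 without WT replicate 2. The endothelial median of 0.39 was 0.18 without WT replicate 1 and 0.64 without WT replicate 2, with 1 to 4 genes higher at an unadjusted p under 0.05 when single libraries were left out. The 4 were found without WT replicate 2, where 1318 of 14947 genes passed in either direction. Both sums were lowest in WT replicate 1, as were Itga5, Itga3 and Itga1. Their part in the integrin levels was not tested.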

How the data were processed

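The authors extracted RNA with TRIzol, made libraries with an NEBNext Ultra kit, which does not mark strand, and mapped reads to mm10 with HISAT. Versions, annotation and the rule for reads that map to several places are not given in the sources used here, and DEGSeq2 is named for the coverage of genes. They deposited raw read counts per gene and a second table of FPKM, which equal the counts over gene length and a denominator per library. The gene coordinates of all 30 members equalled GENCODE M21 (GRCm38).

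The members were taken by gene name. They, the gene lists and the tests were chosen with earlier results of these data known. Every member was named, and of each pathway list the 3 genes with the smallest p. With edgeR 4.0.16 in R 4.3.3, all genes that passed filterByExpr were fitted (TMM factors, quasi-likelihood F test, no covariate), with Benjamini-Hochberg adjustment over 14679 genes, adjusted p under 0.05 as threshold, and standard errors from the F statistic. The biological coefficient of variation was 0.239. The test was run on simulated data first. Totals were 16281216 to 17734551 reads per library, without molecular identifiers, so Poisson intervals cover counting error only. Copies were searched with blastn 2.17.0 (at least 200 bases at 90% identity). Exonic bases shared with other genes were taken from the GENCODE M21 coordinates, with no minimum length. Alternatives were DESeq2's size factors or library size alone, no filter, a minimum of 10 counts in each library, limma 3.58.1 on log2(FPKM + 1) or log2(FPKM + 0.1), DESeq2 1.42.0, a replicate block, and each library left out.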

Additional observations from a re-analysis of the deposited data

How the results depend on the processing

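Under 14 alternatives, 0 members had an adjusted p under 0.05, except without a filter on low counts, where 1 passed, Itgb6. That fit called 65 genes higher and 184 lower of 26956, and the cause of the Itgb6 call was not tested. The median log2 fold change of the members lay between 0.070 and 0.18. The replicate block changed no member's call (Itgb6 -2.24, adjusted p 0.291); deviations of same-numbered libraries correlated at 0.084, -0.16 and 0.105, so that the numbers were not taken as pairs.

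At an unadjusted p under 0.05, 1 member was higher and 2 lower of 30 without a filter, where 1703 of 26956 genes passed in either direction. With at least 10 counts in every library, where Itgb6 was not tested, 0 members were lower and 907 of 13454 genes passed. With 1 library left out, 0 to 2 were higher (Itga3 and Itga5 without WT replicate 2, Itgb7 without eIF5A-KO replicate 3) and 0 to 3 lower (Itga7, Itgb6 and Sdc3 without WT replicate 1). Over all genes, in either direction, 1318 of 14947 passed without WT replicate 2 and 1072 of 15050 without eIF5A-KO replicate 3. Without WT replicate 1 it was 1530 of 15056, and these member counts are read no further.

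Over all genes, 1 was higher and 2 lower at an adjusted p under 0.05. The numbers were 0 and 0 with DESeq2's size factors, library size alone, at least 10 counts or limma on either FPKM scale, 65 and 184 without a filter, 19 and 73 with DESeq2, and 7 and 17 with the replicate block. With 1 library left out they ranged from 0 to 8 and from 0 to 48, both maxima without WT replicate 1.

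Of the 26 members, 13 changed sign in at least 1 alternative, with no call either way. Itga6 was -0.0038 with library size alone, and Itgav was 0.0042 without a filter and 0.0060 and 0.0070 with limma. With 1 library left out, the ranges were -0.058 to 0.45 for Itga1, -0.33 to 0.16 for Itga2, -0.13 to 0.38 for Itga2b, -0.83 to 0.28 for Itga4, -0.29 to 0.32 for Itga6, -0.68 to 0.20 for Itga7, -0.49 to 0.081 for Itga8 and -0.072 to 0.31 for Itga9. They were -0.11 to 0.16 for Itgav, -0.10 to 0.14 for Itgb1, -0.45 to 0.090 for Itgb2, -0.46 to 0.11 for Itgb8 and -0.10 to 0.35 for Sdc4. Of those that kept their sign, Itgb3 ranged from 0.12 to 0.39, Itgb5 from 0.16 to 0.41, Itgb7 from 0.25 to 0.66 and Itga11 from 0.059 to 0.56. Depth limits Itgb6, Itga4, Itga10, Itgam and the 4 untested leukocyte subunits, which had at most 40 reads in any library.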
